A study of Homo sapiens with 8 samples.

Results

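The genes described here encode potassium, calcium, sodium and TRP (transient receptor potential) channels and the auxiliary subunits of the potassium, calcium and sodium channels. They were picked out by symbol, as rows whose names begin with KCN, CACNA, CACNB, CACNG, SCN, HCN, TRPC, TRPM or TRPV in the form used for channel subunits. This set was chosen with earlier results of these data known, so no support is drawn from its shares. The rule found 160 channel genes among 26475 rows. Of these, 58 had enough counts to test, 73 had a few counts and 29 had a count of 0 in all libraries. Among the 58 tested, 17 passed edgeR's quasi-likelihood test (adjusted p under 0.05), 12 higher and 5 lower in NPY1R high cells, where 13.6% of all tested genes changed (5.78% higher and 7.81% lower). Of these, 8 changed by 2-fold or more (13.8% of the tested channel genes, against 3.2% of all tested genes). All but 1 of the 8 were potassium channel genes, which made up 35 of the 58 tested. KCNQ5, KCNF1, KCNK2, KCNK15, KCNH1, KCNH7 and SCN9A were higher by that much, and KCNMA1 was lower. KCNF1 and KCNK2 passed the count filter through the high group alone, so they had to differ, and no support is drawn from the 2-fold share.

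Ion channels are membrane pores that open to voltage, calcium, lipids, acid or temperature and let selected ions down their gradients. Potassium channels hold the resting voltage of a cell negative, calcium channels admit a second messenger, sodium channels carry action potentials, and TRP channels are mostly cation channels that respond to chemical and physical stimuli. Epithelial cells of the breast do not fire action potentials, but they use potassium channels for volume and secretion and calcium channels for calcium transport, and several potassium channels are studied in breast cancer for their part in the cell cycle.

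RNA was sequenced from the cell line BT474, grown from a human breast tumour and carrying extra copies of ERBB2, in 4 libraries labelled NPY1R high (the high group) and 4 labelled NPY1R low (the low group). NPY1R encodes the neuropeptide Y receptor Y1. Both groups are the same cell line grown on plates below confluence, no drug is named for either, and how high and low cells were separated is not said in the labels, nor whether replicates were separate cultures. The p-values therefore measure the spread between these libraries, which may be technical. In bulk RNA, fewer cells with a transcript and less of the transcript per cell cannot be told apart.

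Totals ranged from 18025648 to 30609791 expected counts per library. NPY1R had 856.5 ± 170.4 CPM (counts scaled to the size of each library, with TMM factors) in the high group and 95.5 ± 5.65 CPM in the low group (SD, n = 4 each), so every library matched its label. Luminal markers were present, with a summed level of 8974 to 10271 CPM in the high group and 7310 to 9538 CPM in the low group over 10 genes. Of these 10, PGR (3.28-fold), ESR1 (1.5-fold) and GATA3 (1.51-fold) were higher and GRB7, EPCAM and FOXA1 lower in the high group. Of markers of other cells, COL1A2, COL3A1, PDGFRB and THY1 (fibroblast, 4 of 5), PTPRC and CD3E (immune, 2 of 4) and KRT5 and KRT14 (basal, 2 of 3) were at or under 3 counts in every library, and none of the 3 endothelial or 5 neuron and neuroendocrine markers was. In each list 1 gene held most of the signal. Mean levels were 14.8 CPM for COL1A1, 13.9 for VWF, 14.5 for ENO2, 6.32 for TP63 and 1.35 for CD68, and none of these passed the test. Summed levels were 9.22 to 15.5 CPM in the high and 13.5 to 18.2 CPM in the low libraries for the endothelial list, and 16.5 to 17.1 against 12.2 to 16.6 CPM for the neuron and neuroendocrine list. For the fibroblast list the sums were 10.9 to 17.5 against 10.4 to 17.5 CPM, for the basal list 4.84 to 8.81 against 4.48 to 7.78 CPM, and for the immune list 1.05 to 1.31 against 1.19 to 2.21 CPM. The part of these cell markers in the channel results was not tested. Each library's deviation followed transcript GC content to a different degree, with a Spearman's rho across genes of -0.554 for NPY1R low replicate 4, -0.421 for NPY1R high replicate 3 and 0.453, the highest, for NPY1R low replicate 1 (across genes, which do not count as replicates).

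In edgeR's quasi-likelihood test over all 14008 tested genes, 17 of 58 channel genes (29.3%) had an adjusted p under 0.05, where 13.6% of all tested genes did. Higher calls were 20.7% of the channel genes against 5.78% of all, and lower calls 8.62% against 7.81%. A call with at least a 2-fold change was made for 13.8% of them against 3.2% of all genes. Channel genes were expressed at low levels, with a median over the tested ones of 2.01 CPM against 22.5 CPM for all tested genes. The median absolute log2 change was 0.45 for the channel genes and 0.14 for all tested genes, and the median signed changes were 0.00 and -0.03. KCNF1, KCNK2 and CACNG1 passed the count filter through the high group alone, so the first 2, which are among the 8 called at 2-fold or more, had to differ, and no support is drawn from these shares. With 1 CPM required in 4 libraries, 5 of 38 channel genes (13.2%) were called at 2-fold or more, against 2.74% of all. Where at least 10 counts were required in every library, 15 of 42 channel genes were called (35.7%) against 13.4% of all, and 5 (11.9%) at 2-fold or more against 2.37% of all. With no count filter the shares lay closer together, at 16 of 131 channel genes (12.2%) against 8.65% of all. KCNF1, KCNH1 and KCNK2 had too few counts for both stricter filters. The 5 lower calls became 2 without NPY1R high replicate 3, 3 without NPY1R low replicate 3 and 8 with a GC offset. Of all calls, 42.5% were higher, a share that was 49.8% with median-of-ratios size factors, 56.3% with upper-quartile factors and 54.0% with library totals. Replicates 1 and 2 alone gave 19 channel calls (30.2% of those tested, against 21.2% of all genes). Replicates 3 and 4 alone gave 8 (15.4% against 6.35%). The 17 genes had the same direction in each of these subsets, as they had to, since their groups did not overlap. No support is drawn from that direction.

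**Figure D1:**
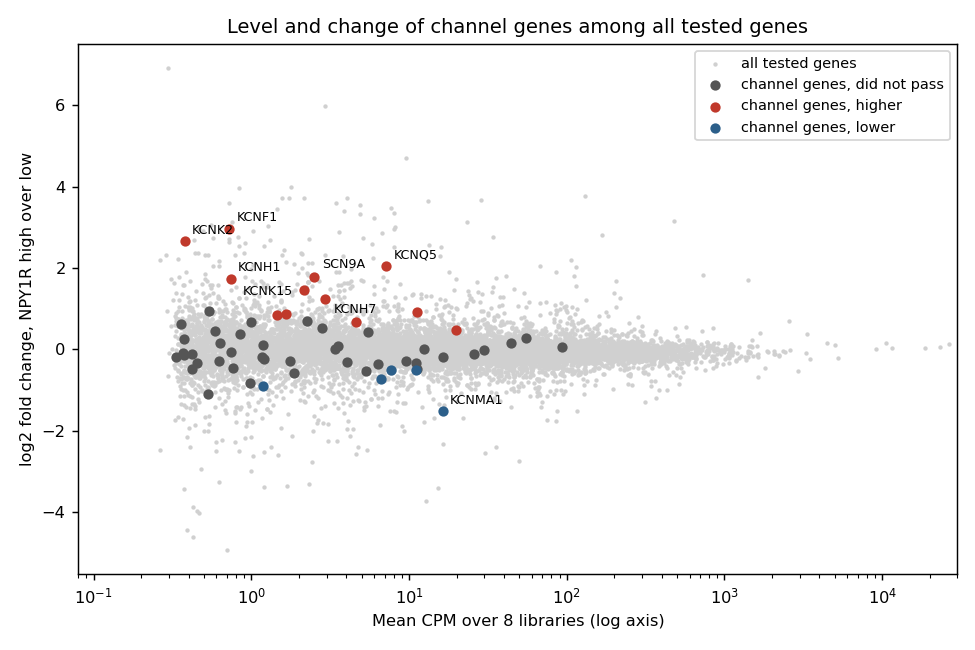
Each grey point is a tested gene, with its mean CPM over 8 libraries on a log axis and its log2 fold change (NPY1R high over NPY1R low) on the other axis. The coloured points are the 58 tested channel genes, of which the 12 higher (red) and 5 lower (blue) lie mostly at the low end of the level axis.

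Classes differed in how many of their genes could be measured. Of 40 pore subunits of voltage-gated potassium channels 14 were tested, 4 higher and 1 lower. Two-pore-domain potassium channels, which leak potassium at rest, had 7 of 15 tested, 2 higher and 2 lower. Inward rectifiers had 5 of 16 tested and 1 higher. Among potassium channels gated by calcium or sodium, 3 of 8 were tested and 1 was lower. Of the potassium channel auxiliary subunits, 6 of 16 were tested and 1 was higher. Calcium channel pores had 3 of 10 tested and 1 higher, and their auxiliary subunits 9 of 16 tested and 2 higher. For sodium channel pores 2 of 10 were tested and 1 was higher, and none of the 4 sodium channel beta subunits could be tested. HCN (1 of 4 tested), TRPC (2 of 7) and TRPM (3 of 8) channels had no gene past the threshold, and TRPV channels had 1 lower of 3 tested among 6. As a family, 12 of 35 tested KCN genes (34.3%) and 5 of 23 other channel genes (21.7%) were called, a difference that was not tested. Of all tested genes 13.6% were called, 5.78% higher and 7.81% lower. The KCN calls include KCNF1 and KCNK2, which passed the count filter through the high group alone, so no support is drawn from these counts.

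**Figure D2:**
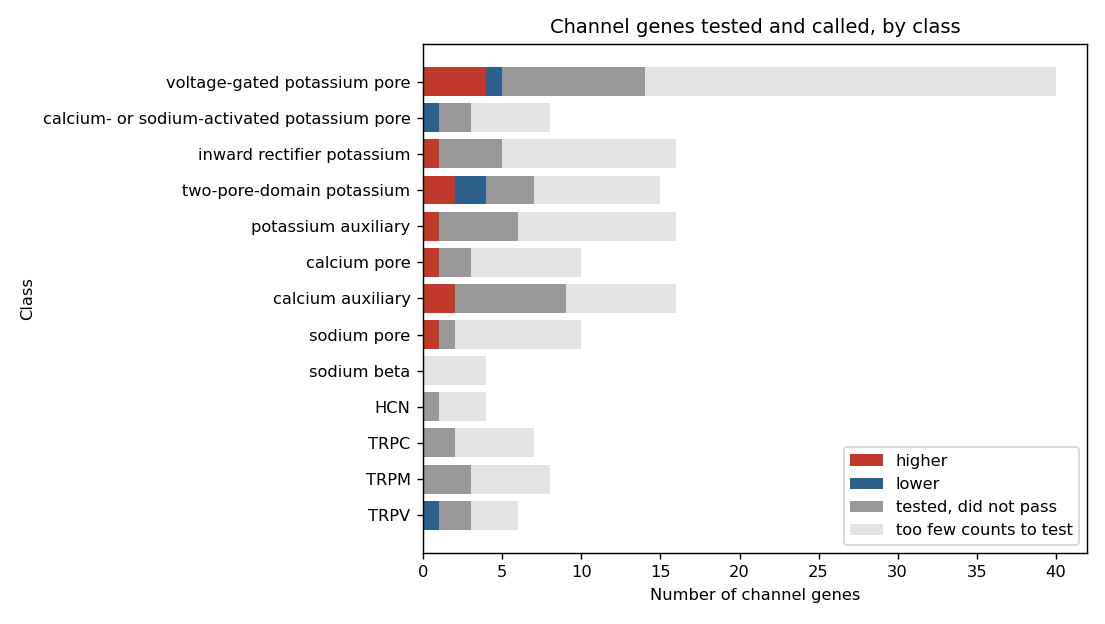
Bars give the number of channel genes in each class, split into higher and lower in NPY1R high, tested without passing the threshold, and too few counts to test. Untested genes are the larger share in every class except calcium channel auxiliary subunits and TRPV channels, and voltage-gated potassium pores hold 4 of the 12 higher genes.

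KCNMA1 encodes the pore of the BK channel, a potassium channel of large conductance opened by calcium and by depolarisation. It lies on chromosome 10 from 76869601 to 77638369 on the minus strand (GRCh38, GENCODE release 29). Its CPM values were 10.2, 6.66, 8.65 and 8.09 in NPY1R high replicates 1 to 4 and 24.5, 22, 24.2 and 26.4 in NPY1R low replicates 1 to 4. The groups lie far apart, with the highest NPY1R high library below the lowest NPY1R low library by more than the spread within either. The level was 2.89-fold lower (log2 change -1.53, SE 0.13, adjusted p 5.01e-05). It was the smallest p of any channel gene. KCNMA1 and KCNN4 together held most of the counts of potassium channels gated by calcium or sodium. The summed CPM of that class was 18.5 ± 2.47 in the high group and 38.1 ± 1.11 in the low group (SD, n = 4 each). KCNN4, the intermediate-conductance calcium-activated channel, had 9.49 ± 1.38 and 13.2 ± 2.67 CPM (SD, n = 4 each, adjusted p 0.0933), and KCNN2 had a log2 change of -0.11 (SE 0.42). The BK beta subunit KCNMB3 had a log2 change of 0.00 (SE 0.17), and it shares exon sequence on the opposite strand with PIK3CA. It was the only KCNMB gene with enough counts to test.

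KCNQ5 encodes a pore subunit of the M-type potassium current, which opens slowly near the resting voltage. It lies on chromosome 6 from 72621792 to 73198851 on the plus strand. Its CPM values were 9.76, 9.67, 13.4 and 13.6 in the high group and 2.08, 2.24, 3.43 and 3.38 in the low group. Within both groups replicates 3 and 4 were the higher ones, and the groups did not overlap. The rise was 4.18-fold, or 2.06 (SE 0.21) in log2, at an adjusted p of 0.000148. KCNQ1, of the same subfamily, had a log2 change of 0.95 (SE 0.45) and did not pass. KCNQ1 shares exon sequence with its antisense RNA KCNQ1OT1.

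KCNF1 encodes a silent subunit that makes no channel alone and modifies channels of the KCNB type. Its values were 1.48, 0.707, 1.48 and 1.49 CPM in the high group and 0.302, 0.105, 0.137 and 0.0786 CPM in the low group. These rest on 19 to 43 counts in the high group and 2 to 9 in the low group. The rise was 7.82-fold (log2 change 2.97, SE 0.42, adjusted p 0.00115), and 11.9-fold without NPY1R low replicate 1 (log2 change 3.57, adjusted p 0.00113). KCNF1 passed the count filter only through the high group, so that it had to differ. KCNS3, another silent subunit, went the other way. It had 8.62, 7.88, 9.3 and 10.4 CPM in the high group and 10.7, 12.3, 13.2 and 15.4 CPM in the low group, a log2 change of -0.51 (SE 0.13, adjusted p 0.0302). The call for KCNS3 was lost without NPY1R high replicate 1, 2 or 3 (adjusted p 0.0818, 0.0892 and 0.0844), without NPY1R low replicate 2, 3 or 4 (0.0513, 0.0799 and 0.0653), with upper-quartile factors (0.0633) and with no count filter (0.0504).

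KCNH7 and KCNH1 belong to the ether-a-go-go family, KCNH7 to its ERG branch and KCNH1 to its EAG branch, and KCNH1 is studied as a channel that tumours express outside the brain. KCNH7 had 4.53, 4.91, 3.55 and 3.41 CPM in the high group and 2.08, 2.0, 1.33 and 1.49 CPM in the low group, a 2.37-fold rise (log2 change 1.24, SE 0.20, adjusted p 0.00232). Replicates 1 and 2 were the higher ones in both groups. KCNH7 shares exon sequence on the opposite strand with GCA, which itself had a log2 change of 0.40 (SE 0.09, adjusted p 0.0132), and how the counting used strand is not given in the sources used here. KCNH1 had 0.962, 1.0, 1.01 and 1.6 CPM in the high group and 0.403, 0.07, 0.366 and 0.511 CPM in the low group. Its log2 change was 1.74 (SE 0.41, adjusted p 0.0197), and the call was lost without NPY1R high replicate 4 (0.0576) and without NPY1R low replicate 3 (0.0523). KCNH2, of the ERG branch, had a log2 change of 0.25 (SE 0.31).

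The 7 tested two-pore-domain channels split in direction. KCNK15, classed with the acid-sensitive TASK branch, had 3.4, 3.12, 2.89 and 3.25 CPM in the high group and 1.17, 1.51, 0.869 and 0.982 CPM in the low group. Whether it carried a current or responded to acid was not measured. The RNA of KCNK15 rose 2.76-fold (log2 change 1.47, SE 0.19, adjusted p 0.000658). The exons of KCNK15 overlap RIMS4 on the opposite strand, and RIMS4 had a log2 change of 0.68 (SE 0.12, adjusted p 0.00401), so reads of the 2 genes may not have been kept apart. KCNK2, a channel opened by membrane stretch and lipids, had 13, 11, 17 and 21 counts in the high group and 5, 0, 4 and 1 in the low group. Its mean was 0.657 ± 0.345 and 0.0975 ± 0.0916 CPM (SD, n = 4 each), which is a log2 change of 2.67 (SE 0.64, adjusted p 0.0205). KCNK2 too passed the count filter only through the high group. At this depth the size of its change is poorly set, and the call was lost without NPY1R high replicate 4 (0.0532).

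KCNK3, also of the TASK branch, was lower, with 0.928, 1.04, 0.651 and 0.661 CPM in the high group and 1.44, 1.65, 1.88 and 1.3 CPM in the low group. KCNK3 and KCNK15 therefore moved in opposite directions although they are classed in the same branch. The log2 change of KCNK3 was -0.91 (SE 0.23, adjusted p 0.0237). That call was lost without NPY1R high replicate 3 or 4 (0.0826 and 0.0841) and without NPY1R low replicate 1, 2 or 3 (0.0553, 0.0566 and 0.0713). KCNK6, a weakly inwardly rectifying leak channel, had 6.36, 6.14, 5.93 and 6.77 CPM in the high group and 9.5, 7.95, 10.1 and 8.68 CPM in the low group (log2 change -0.52, SE 0.11, adjusted p 0.0117). Its adjusted p was 0.051 without NPY1R high replicate 3 and 0.0535 without NPY1R low replicate 1. KCNK1, the most abundant gene of this class, had 24.9 ± 0.95 and 26.9 ± 1.19 CPM (SD, n = 4 each, adjusted p 0.341). The summed CPM of the class was 43.4 ± 1.09 in the high group and 44.3 ± 1.00 in the low group (SD, n = 4 each), so its makeup shifted with little difference in its total.

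Among inward rectifiers and potassium channel auxiliary subunits the changes were smaller. KCNJ13, an inward rectifier of fluid-transporting epithelia, had 5.77, 6.69, 5.5 and 4.52 CPM in the high group and 3.19, 2.91, 4.44 and 3.73 CPM in the low group (log2 change 0.67, SE 0.17, adjusted p 0.0291). The groups barely separate, since NPY1R high replicate 4 lies next to NPY1R low replicate 3. High exceeded low by 1.03 on the log2 scale among replicates 1 and 2, and by 0.29 among replicates 3 and 4. The call of KCNJ13 was lost without NPY1R high replicate 1, 2 or 3 (0.0721, 0.0873 and 0.0558) and without NPY1R low replicate 1 or 2 (0.0781 and 0.0753). KCNJ13 shares exon sequence with GIGYF2 on the opposite strand. GIGYF2 had a log2 change of 0.03 (SE 0.06). KCNJ11, the pore of the ATP-sensitive channel and the most abundant inward rectifier by CPM, had 9.77 ± 1.54 and 12.3 ± 3.38 CPM (SD, n = 4 each, adjusted p 0.352).

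KCNAB2 encodes a cytoplasmic beta subunit of KCNA-type channels. It had 2.06, 2.31, 1.48 and 1.65 CPM in the high group and 1.24, 1.09, 1.1 and 0.746 CPM in the low group, a 1.8-fold rise (log2 change 0.85, SE 0.22, adjusted p 0.0312). The call was lost without NPY1R high replicate 1 or 2 (0.0869 and 0.0919) and without NPY1R low replicate 2 or 3 (0.0627 and 0.0705). KCNAB2 overlaps NPHP4 on the opposite strand, which had a log2 change of -0.37 (SE 0.23). No KCNA pore subunit had enough counts to be tested. KCNAB1, the potassium channel auxiliary subunit with the highest CPM, had 3.62 ± 0.513 and 3.43 ± 0.639 CPM (SD, n = 4 each, adjusted p 0.83).

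**Figure D3:**
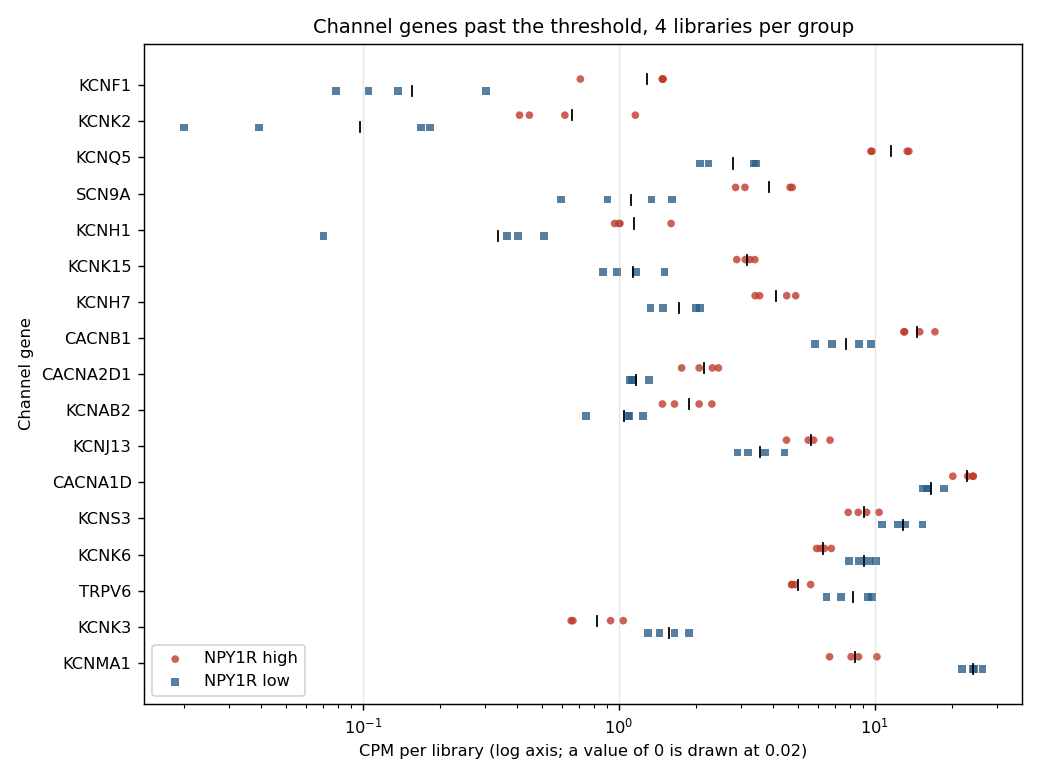
Each point is the CPM of a library on a log axis, red circles for the 4 NPY1R high and blue squares for the 4 NPY1R low libraries, and black bars are group means. In all 17 genes the groups do not overlap, with KCNMA1 at 6.66 to 10.2 CPM against 22 to 26.4 and KCNJ13 and KCNS3 the closest to touching. KCNF1 and KCNK2 passed the count filter through the high group alone, so their groups had to lie apart.

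Promoters of KCNMA1, the lower gene with the smallest p, and of KCNQ5 and KCNF1, the higher genes with the largest folds among potassium channels called in every fit that tested them, are shown because these are the stretches from which their transcripts start. They are windows from the RefSeq annotation of GRCh38.p14, from 250 bases before a start to 50 after it, on the strand of the gene. KCNK15 and KCNH7 had no window in the set and are named only. KCNF1 passed the count filter only through the high group, so no support is drawn from its kept calls. KCNMA1 has 2 annotated windows. Capitals mark the half-site of the estrogen response element, GGTCA or its reverse complement TGACC. It was searched because ESR1 and PGR, the estrogen and progesterone receptors, are part of the luminal markers measured in these cells, and both were higher in the high group.
KCNQ5, chr6:72621814-72622113, plus strand: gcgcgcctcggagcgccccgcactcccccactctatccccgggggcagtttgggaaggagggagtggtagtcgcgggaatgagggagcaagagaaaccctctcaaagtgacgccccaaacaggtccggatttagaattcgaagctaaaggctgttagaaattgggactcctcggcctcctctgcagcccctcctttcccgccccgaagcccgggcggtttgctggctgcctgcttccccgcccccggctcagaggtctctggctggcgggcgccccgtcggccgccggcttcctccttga
KCNF1, chr2:10911684-10911983, plus strand: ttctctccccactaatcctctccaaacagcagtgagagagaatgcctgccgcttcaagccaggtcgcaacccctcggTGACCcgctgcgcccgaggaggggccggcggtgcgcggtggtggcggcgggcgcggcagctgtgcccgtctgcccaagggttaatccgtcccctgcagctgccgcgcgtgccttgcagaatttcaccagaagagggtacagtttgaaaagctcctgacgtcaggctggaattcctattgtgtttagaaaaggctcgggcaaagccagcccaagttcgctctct
KCNMA1, chr10:77637759-77638058, minus strand: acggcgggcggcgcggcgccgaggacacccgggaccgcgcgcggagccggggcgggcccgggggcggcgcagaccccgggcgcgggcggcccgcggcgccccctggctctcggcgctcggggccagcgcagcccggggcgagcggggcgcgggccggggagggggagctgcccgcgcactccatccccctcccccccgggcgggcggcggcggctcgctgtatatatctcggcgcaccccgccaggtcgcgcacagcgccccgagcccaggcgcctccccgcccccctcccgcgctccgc
KCNMA1, chr10:77350712-77351011, minus strand: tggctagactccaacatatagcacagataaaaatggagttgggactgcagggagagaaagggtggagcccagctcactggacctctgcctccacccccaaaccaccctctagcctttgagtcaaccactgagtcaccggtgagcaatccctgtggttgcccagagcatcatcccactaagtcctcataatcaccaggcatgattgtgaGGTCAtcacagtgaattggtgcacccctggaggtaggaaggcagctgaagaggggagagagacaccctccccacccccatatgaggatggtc

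The windows differ in base composition. The KCNQ5 and KCNF1 windows hold 24 and 22 CpG dinucleotides, the upstream KCNMA1 window holds 54 and the downstream KCNMA1 window 1, against a median of 25 over windows of all tested genes. The counts are summed over a gene, so they do not show which KCNMA1 start was used. A half-site was found in 18 of 80 windows of the tested channel genes (22.5%), in 5 of 14 windows of the higher channel genes (35.7%) and in 2 of 7 of the lower ones (28.6%), against 34.3% of windows of tested genes and 37.4% of all 35116 windows. The full element GGTCANNNTGACC was found in 0 windows of channel genes tested and in 0.057% of all windows, and its letters overlap the half-site. For the half-site of the progesterone response element, TGTTCT or its reverse complement AGAACA, the shares were 0 of 14 and 1 of 7, and 8.75% over the tested channel genes, against 9.77% of windows of tested genes. These shares count windows, not genes. KCNAB2, KCNK2, KCNS3 and KCNMA1 have more windows than the other called genes, and KCNK15 and KCNH7 have none. KCNAB2 gave several of the windows of the higher genes, some of them with a half-site. A match of letters is a description of the window, not a site of binding.

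Voltage-gated calcium channels consist of a pore subunit with beta and alpha-2-delta subunits that bring it to the membrane. Of the tested pores, CACNA1D was higher, and 1 beta and 1 alpha-2-delta subunit were higher with it. CACNA1D, an L-type pore, had 23.1, 24.2, 20.2 and 24.3 CPM in the high group and 16.1, 18.7, 16 and 15.4 CPM in the low group. The 2 groups were separate, with a 1.38-fold rise (log2 change 0.47, SE 0.10, adjusted p 0.00896). CACNA1D shares exon sequence with CHDH on the opposite strand, which had a log2 change of -0.16 (SE 0.11). CACNA1H, a T-type pore, had 15.4 ± 4.28 and 17.6 ± 4.74 CPM (SD, n = 4 each) and did not pass, with NPY1R high replicate 3 and NPY1R low replicate 4 the lowest of their groups at 9.59 and 11.0 CPM.

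CACNB1, a beta subunit, had 15.0, 13.1, 13.0 and 17.2 CPM in the high group and 6.81, 9.67, 8.69 and 5.85 CPM in the low group, a 1.88-fold rise (log2 change 0.91, SE 0.17, adjusted p 0.00546). CACNA2D1, the alpha-2-delta subunit bound by gabapentin, had 2.06, 2.45, 2.32 and 1.76 CPM in the high group and 1.31, 1.12, 1.1 and 1.14 CPM in the low group (log2 change 0.88, SE 0.17, adjusted p 0.00718). Neither gene lost its call when any single library was left out. The other beta subunits did not pass, at log2 changes of 0.16 (SE 0.14) for CACNB3, -0.29 (SE 0.36) for CACNB2 and -0.45 (SE 0.26) for CACNB4. CACNA2D2 had a log2 change of -0.32 (SE 0.15, adjusted p 0.202). CACNG4, of the gamma family that also regulates AMPA-type glutamate receptors, had 60.2 ± 12.6 and 50 ± 13.9 CPM (SD, n = 4 each). Replicates 1 and 2 were its higher libraries in both groups, at 72.9 and 67.9 CPM and at 60.7 and 62.5 CPM. Its adjusted p was 0.485, and 0.0424 when replicates 1 and 2 were set against 3 and 4 in the model.

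SCN9A encodes a sodium channel pore best known from pain-sensing neurons. It lies on chromosome 2 from 166195185 to 166376001 on the minus strand. Its values were 4.67, 4.76, 3.11 and 2.86 CPM in the high group and 1.34, 1.61, 0.595 and 0.903 CPM in the low group, on 13 to 136 counts per library. In both groups replicates 1 and 2 were the higher ones, and the groups did not overlap. The rise was 3.41-fold (log2 change 1.77, SE 0.30, adjusted p 0.00313). SCN8A, the other tested sodium channel pore, had a log2 change of 0.15 (SE 0.39). SCN1A did not pass the filter, and is given because of its spread. It had 43, 44, 4 and 2 counts in the high group and 9, 14, 2 and 1 in the low group, so replicates 1 and 2 of both groups held nearly all of its reads. The replicates are not marked as batches in the labels, and the part of this division in the SCN1A values was not tested. Within replicates 1 and 2, and within 3 and 4, the SCN9A difference was 1.68 and 2.00 on the log2 scale. Sodium channel beta subunits were near the floor. SCN4B, the most abundant of them, had 6 counts over all libraries, and SCN2B and SCN3B had 0, where a count of 0 in a library allows up to 3 counts.

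HCN channels carry the pacemaker current. HCN3, the only one tested, had 5.56 ± 0.622 CPM in the high group and 7.14 ± 1.16 CPM in the low group (SD, n = 4 each, adjusted p 0.154). Its adjusted p was 0.0431 without NPY1R low replicate 4 and 0.0485 with a GC offset.

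Of the TRP channels, TRPV6 was the only tested gene past the threshold. TRPV6 forms a calcium-selective pore for calcium uptake in epithelia. Its CPM values were 4.88, 5.62, 4.74 and 4.74 in the high group and 9.76, 9.42, 7.37 and 6.48 in the low group, with every NPY1R high library below every NPY1R low library. The log2 change was -0.73 (SE 0.15, adjusted p 0.0109). TRPV1, the capsaicin receptor, had 8.56 ± 1.10 and 10.5 ± 1.40 CPM (SD, n = 4 each, adjusted p 0.202), and TRPV4 a log2 change of -0.25 (SE 0.38). TRPV1 shares exon sequence with SHPK on the same strand, so their reads may not have been kept apart. SHPK had a log2 change of -0.38 (SE 0.11, adjusted p 0.0571). TRPC6, a channel opened by diacylglycerol, had 2.2, 2.71, 2.97 and 3.19 CPM in the high group and 1.31, 1.19, 2.24 and 2.08 CPM in the low group. Those groups overlap by a single library on each side, and the adjusted p was 0.0818. It was 0.0464 without NPY1R low replicate 4 and 0.0108 when replicates 1 and 2 were set against 3 and 4 in the model.

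TRPM7, a channel fused to a kinase and a route of magnesium entry, had 94.7 ± 2.92 and 91.6 ± 4.83 CPM (SD, n = 4 each, adjusted p 0.66). It had the highest CPM of any channel gene. TRPM4 and TRPM2 had log2 changes of -0.01 (SE 0.20) and 0.00 (SE 0.27). Per kilobase of the longest annotated coding transcript, the most abundant channel genes were CACNG4 and CACNB3 at 16.3 CPM per kilobase each. KCNK1 followed at 12, TRPM7 at 8.96 and TRPM4 at 7.27 CPM per kilobase. None of these 5 passed the threshold. Of the called genes, KCNS3 stood highest on this scale at 4.58 CPM per kilobase.

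**Figure D4:**
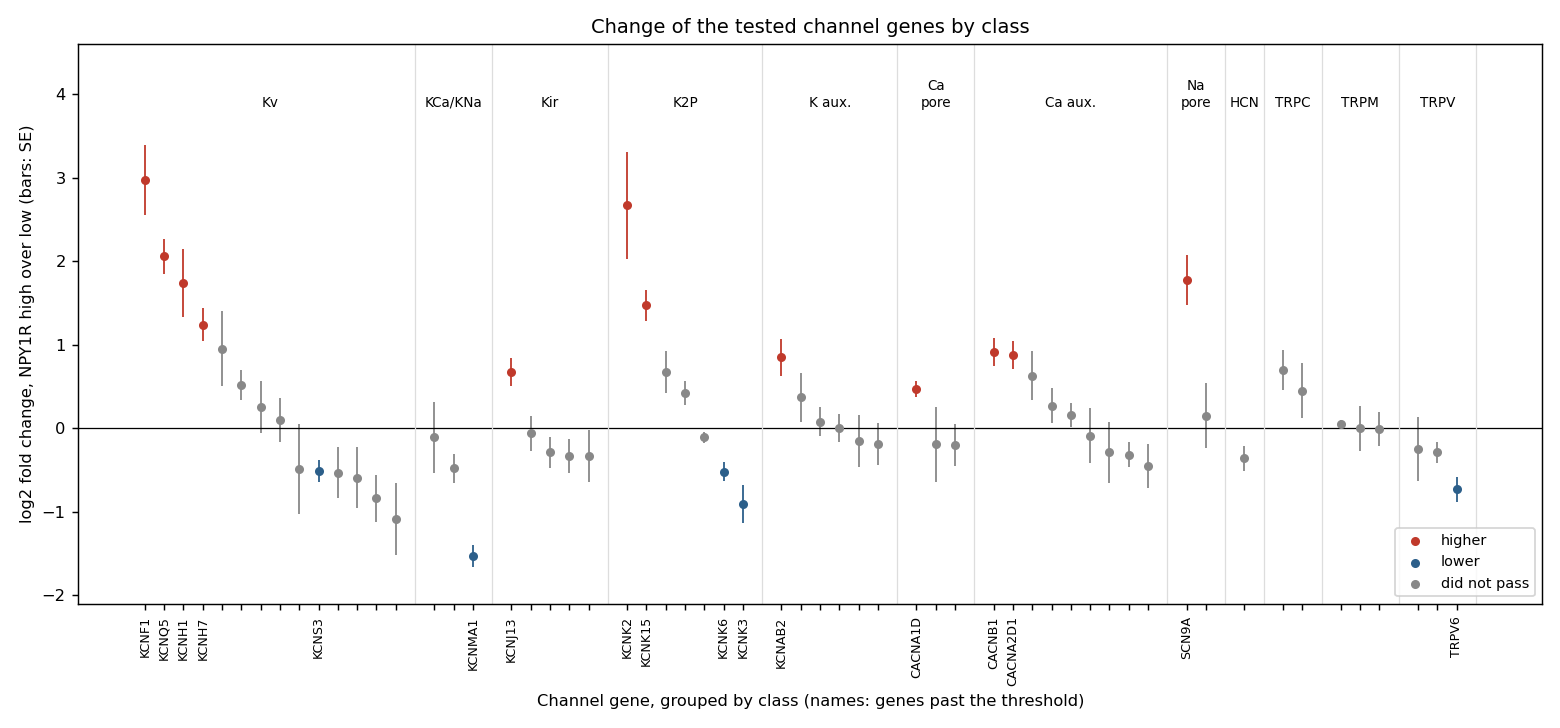
Points are log2 fold changes (NPY1R high over NPY1R low) of the 58 tested channel genes with their standard errors, in order of size within each class (Kv voltage-gated, KCa/KNa calcium- or sodium-activated, Kir inward rectifier, K2P two-pore-domain, aux. auxiliary). Red and blue mark the 12 higher and 5 lower genes, which are named on the axis, and both colours occur among voltage-gated and two-pore-domain potassium channels.

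Of the tested channel genes, 21 (36.2%) had groups that did not overlap, against 20.2% of all tested genes, and in 15 of them the high group lay above, against 8.77% of all tested genes. These were the 17 called genes and KCNK5, KCNG3, KCNV1 and CACNG1, named after their values were seen. KCNF1, KCNK2 and CACNG1 passed the count filter through the high group alone, so their groups had to lie apart with the high group above. No support is drawn from the shares of genes whose groups lay apart. KCNK5, an acid- and alkali-sensitive leak channel, had 6.30 ± 0.641 and 4.69 ± 0.603 CPM (SD, n = 4 each) and an adjusted p of 0.0713. KCNG3 and KCNV1, both silent subunits, had log2 changes of -0.84 (SE 0.28) and 0.52 (SE 0.18), and CACNG1 one of 0.63 (SE 0.29). Median transcript GC content was 47.9% for the higher channel genes, 53.9% for the lower and 56.3% for those that did not pass, against 49.9% for all tested genes. With each library's trend on GC content removed, all 17 calls remained and 6 were added.

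Genes that work with these channels or carry related currents were read from a list of 64 present in the table, of which 41 were tested, 4 higher and 3 lower. These 7 calls are 17.1% of the tested genes of the list, near the 13.6% of all tested genes, so the count says nothing particular to the list, and the genes below are given one by one. The largest changes were in the epithelial sodium channel. Its gamma subunit SCNN1G had 1.34, 1.78, 3.62 and 3.91 CPM in the high group and 0.134, 0.175, 0.183 and 0.471 CPM in the low group (log2 change 3.44, SE 0.49, adjusted p 0.0012). Its beta subunit SCNN1B had 2.58, 2.75, 4.99 and 6.0 CPM in the high group and 0.973, 1.26, 1.69 and 1.18 CPM in the low group (log2 change 1.67, SE 0.31, adjusted p 0.00576). The alpha subunit SCNN1A, without which the channel carries little current, had 97.9 ± 13.7 and 105.3 ± 10.2 CPM (SD, n = 4 each, adjusted p 0.608). NPY1R high replicates 3 and 4 were the higher ones for both SCNN1G and SCNN1B.

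STIM2, a calcium sensor of the endoplasmic reticulum, rose by 0.38 (SE 0.09, adjusted p 0.0198) on the log2 scale and PKD2, a calcium-permeable channel of cilia and the endoplasmic reticulum, by 0.36 (SE 0.10, adjusted p 0.0415). The secretory pathway calcium pump ATP2C2 had a log2 change of -0.70 (SE 0.17, adjusted p 0.02) and the calmodulin gene CALM3 one of -0.29 (SE 0.07, adjusted p 0.024). ORAI1, ORAI2, ORAI3 and STIM1, which form store-operated calcium entry with STIM2, did not pass. Leaving out a library ended the call of STIM2 in 2 of 8 fits (adjusted p 0.0585 without NPY1R high replicate 1 and 0.0565 without replicate 2). PKD2, named after its values were seen, lost it in 7 of 8, all but that without NPY1R low replicate 4 (adjusted p up to 0.104). ATP2C2 lost it in 3 (0.0543 and 0.0695 without NPY1R high replicate 3 or 4, 0.0612 without NPY1R low replicate 1). CALM3 lost it without NPY1R high replicate 3 or 4 (0.077 and 0.113) and NPY1R low replicate 1, 2 or 3 (0.0927, 0.0658 and 0.051).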

How the data were processed

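The deposited values are expected counts per gene, which the authors made with STAR 2.5.2 and RSEM 1.3.0 on hg38, per the submitters' processing notes; the annotation and strand setting are not given in the sources used here, while the library kit named in the labels keeps strand. Expected counts are estimates and 7.97% to 8.76% of all values per library, those of 0 included, were not whole, so they were rounded. The design had assumed whole counts, and the test was the same. Genes with low counts were removed with filterByExpr (minimum count 10), libraries were scaled by TMM, and NPY1R high was compared with NPY1R low (4 libraries each) by the quasi-likelihood test of edgeR 4.0.16 in R 4.3.3. P-values were adjusted by Benjamini-Hochberg over all 14008 tested genes, and SEs are the fitted log2 change divided by the root of its F. Totals of 18025648 to 30609791 counts set the precision, and low genes such as KCNK2 rest on few reads.

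The channel genes and the lists of partner and marker genes were chosen with earlier results of these data known. Named genes are all called channel genes, the most abundant of each class, the 6 called partner genes with the smallest p, and NPY1R; other genes were named as members of the same family or after their values were seen. Alternatives were other scalings and filters, DESeq2 1.42.0, limma-voom (limma 3.58.1), robust shrinkage, a replicate block, a term for replicates 1 and 2 against 3 and 4, an offset for transcript GC content, each library left out, and a threshold of 0.01. Scripts were tested on simulated data. Some genes that enter the counts are not reported here by name. Positions and overlaps are from GENCODE release 29 and promoters from RefSeq.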

Additional observations from a re-analysis of the deposited data

Results flagged for a closer look

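In 6 of 64 group values (32 genes in 2 groups), 1 library stood apart from the other 3, with a gap to its nearest neighbour that exceeded Dixon's critical value as a share of the range of the group. Chance gives about 3.2 such values. KCNF1 in NPY1R high replicate 2 was lower, at 0.707 CPM against 1.48 to 1.49 CPM (gap 0.988 of the range). TRPV6 in NPY1R high replicate 2 was higher, at 5.62 against 4.74 to 4.88 CPM (0.838). KCNH1 in NPY1R high replicate 4 was higher, at 1.6 against 0.962 to 1.01 CPM (0.919), and it is a library without which its call was lost. HCN3 in NPY1R high replicate 3 was lower, at 4.63 against 5.78 to 5.95 CPM (0.873). TRPM7 in NPY1R low replicate 4 was higher, at 98.9 against 89.0 to 89.5 CPM (0.942). SCNN1G in NPY1R low replicate 4 was higher, at 0.471 against 0.134 to 0.183 CPM (0.855).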

How the results depend on the processing

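No called channel gene changed direction under any alternative run. Their groups did not overlap, so leaving out libraries could not have reversed them, and no support is drawn from that. Of the 17, 7 (KCNMA1, KCNQ5, KCNK15, KCNF1, KCNH7, SCN9A and CACNB1) kept their call in every fit that tested them. KCNF1 had too few counts for the 2 stricter filters. It passed the main filter through the high group alone, so no support is drawn from its kept call. Fits of replicates 1 and 2 alone, of replicates 3 and 4 alone, and without both libraries at the low end of the GC trend were chosen after seeing the data. The 17 channel calls were 13 to 19 with a library left out, the 12 higher 10 to 13 and the 5 lower 2 to 6. Over all genes the 1904 calls were 1351 to 2132, the 810 higher 624 to 1068, the 1094 lower 625 to 1064, and the 7 partner calls 3 to 8. With replicates 3 and 4 alone there were 8 channel calls (7 higher, 1 lower), 888 over all genes (445 higher, 443 lower) and 2 partner calls. With replicates 1 and 2 alone there were 3015 over all genes (1421 higher) and 17 partner calls. A threshold of 0.01 gave 9 channel calls (1 lower), 1032 over all genes (470 higher, 562 lower) and 2 partner calls. The GC offset gave 8 lower channel calls, 2864 over all genes (1736 lower) and 12 partner calls. Setting replicates 1 and 2 against 3 and 4 in the model gave 2886 over all genes (1681 lower). The cause of these shifts was not tested, beyond the fewer libraries in the subsets.

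The replicate block gave 18 channel calls, with 16 of the 17 kept, KCNJ13 lost (adjusted p 0.0541) and 2 added, and 1833 calls over all genes. With a GC offset as well, the replicate block gave 8 lower channel calls, 3285 over all genes (1307 higher, 1978 lower) and 13 partner calls. Correlations of same-numbered libraries were 0.339, 0.157, 0.0907 and 0.0178, and the main test did not take the numbers as pairs. Of the high libraries, only replicate 2 correlated best with the low library of its own number. In the sample titles, the final numbers alternate between low and high through successive replicates. These correlations do not settle whether the replicates were paired, and the replicate block is given for that case. Of 737 gene values under alternatives, 646 kept direction and side of the threshold, 75 fell short of it, 12 passed it and 4 reversed, all of genes that were not called: KCNJ11 to 0.02 with replicates 3 and 4, and KCNAB1 (-0.02 to 0.20 over fits with a library left out) to -0.01 without NPY1R high replicate 2, -0.02 without NPY1R low replicate 2 and -0.06 with replicates 3 and 4. Of 34 tested channel genes under 3 CPM, 9 were called, where 13.6% of all tested genes at any level were. The share called among all genes under 3 CPM was not counted. KCNF1 and KCNK2, which are among the 9, passed the count filter through the high group alone. A further 73 channel genes with some counts could not be tested at this depth.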
